A study of Mus musculus with 16 samples.

Results

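The genes described are 45 genes of DNA replication and nucleotide supply, chosen by name: the factors that license and fire replication origins, the replicative helicase, the polymerases and their clamp, the enzymes that make deoxynucleotides, the proteins that rebuild chromatin behind the fork, and the cyclins and transcription factor of entry into S phase. Of 20667 genes with a named probe on the array, these 45 all had one, and each gene was read from the probe whose mean over all 16 arrays was highest. In 44 of them the probe was well above background on at least 2 arrays, as for 14688 genes in all, and these 44 were tested. The remaining member, Ccne2 (cyclin E2), was not well above background on any array and has no level here.

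The RNA came from CD4+ T cells of spleen, enriched with an isolation kit and sorted by flow cytometry, from male mice of 8 to 10 weeks, and was hybridised to 1-colour (Cy3) Agilent arrays. All mice carried Cre recombinase under the CD4 promoter (CD4cre), the controls included, so that Cre itself is no difference between groups. The control group carried CD4cre alone, the IKK2 knockout CD4cre with IKK2fl/fl (the floxed gene Ikbkb, a catalytic subunit of the IkB kinase complex) and the NEMO knockout CD4cre with a floxed Ikbkg, the regulatory subunit of the same complex, written NEMOfl/f in the labels. Each genotype was sampled without inflammation and on day 10 of nephrotoxic serum nephritis (NTN), an immune-mediated glomerulonephritis induced by an intraperitoneal injection of sheep serum at 2.5 mg for each g of body weight. There were 3 arrays in each control and IKK2 group and 2 in each NEMO group. CD4cre acts in every cell that has been through the CD4-positive thymocyte stage, and nothing in the labels ties each array to an animal of its own. The p values then cover the spread from array to array, which may be technical.

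As background, a chromosome is copied once in each cell cycle because licensing and firing of origins are kept apart in time. In late mitosis and early interphase the origin recognition complex, Cdc6 and Cdt1 load the MCM ring onto origins, and geminin (Gmnn) then blocks further loading. At entry into S phase, cyclin E with its kinase and the Dbf4-dependent kinase join Cdc45 and the GINS complex to the ring, which makes it an active helicase. Many of these genes are targets of E2F transcription factors, which are held in check by retinoblastoma proteins in resting cells, and a naive T cell leaves this resting state when its antigen receptor is engaged.

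The promoters show how far the genes share the letters of that regulation. Sequences were taken from RefSeq for mouse assembly GRCm38.p6, where 36 of the 45 members matched a window from 250 bases before to 50 bases after the gene's start. The words searched, on both strands, were TTTCCCGC, TTTCGCGC, TTTGGCGC and TTTGCCGC, which are versions of the E2F site. At least 1 of them was found in 14 of the 36 members (38.9%) and in 2.6% of the 27025 genes with a window, or 2.26% of all windows of that length. Among members at least 2-fold higher in untreated NEMO knockout than in untreated Cre arrays, 5 of the 13 with a window held a word (38.5%), against 9 of 23 other tested members (39.1%). The CCAAT box (CCAAT) was in 61.1% of members and 41.1% of all genes, and the words TTTGAA and TTCGAA of the cell cycle homology region, typical of mitotic genes, were in 19.4% and 21.7%. A match is a description of the letters and not a bound site. The 250 bases before the start of 5 members are shown 5′ to 3′ on the gene's strand, with the E2F words in capitals: Cdc6 and Pola1, which were higher in NEMO knockout arrays, Mcm6 with overlapping words, Gins3, which holds a word but was lower, and Rrm2, which had the largest difference and holds none of these words.
Cdc6, chr11:98907901-98908150, plus strand: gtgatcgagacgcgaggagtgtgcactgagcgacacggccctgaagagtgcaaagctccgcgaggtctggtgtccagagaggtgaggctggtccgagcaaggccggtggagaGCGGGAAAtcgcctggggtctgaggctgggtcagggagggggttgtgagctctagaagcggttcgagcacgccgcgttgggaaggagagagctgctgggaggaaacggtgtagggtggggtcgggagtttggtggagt
Mcm6, chr1:128359706-128359955, minus strand: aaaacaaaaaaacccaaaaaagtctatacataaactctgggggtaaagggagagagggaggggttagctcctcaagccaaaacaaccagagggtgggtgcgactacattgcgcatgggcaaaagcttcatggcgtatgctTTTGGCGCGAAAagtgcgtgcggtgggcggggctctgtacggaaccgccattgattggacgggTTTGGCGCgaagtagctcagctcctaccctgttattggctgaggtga
Pola1, chrX:93632156-93632405, minus strand: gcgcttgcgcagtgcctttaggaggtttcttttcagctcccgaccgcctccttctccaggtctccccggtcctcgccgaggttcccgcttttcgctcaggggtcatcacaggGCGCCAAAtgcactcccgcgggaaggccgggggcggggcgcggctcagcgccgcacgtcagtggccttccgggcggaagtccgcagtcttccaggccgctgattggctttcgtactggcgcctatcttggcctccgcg
Gins3, chr8:95633309-95633558, plus strand: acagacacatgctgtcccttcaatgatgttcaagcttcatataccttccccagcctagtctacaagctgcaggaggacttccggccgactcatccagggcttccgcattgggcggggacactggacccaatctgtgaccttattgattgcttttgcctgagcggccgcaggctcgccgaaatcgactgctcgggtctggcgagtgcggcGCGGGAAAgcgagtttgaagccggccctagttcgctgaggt
Rrm2, chr12:24708004-24708253, plus strand: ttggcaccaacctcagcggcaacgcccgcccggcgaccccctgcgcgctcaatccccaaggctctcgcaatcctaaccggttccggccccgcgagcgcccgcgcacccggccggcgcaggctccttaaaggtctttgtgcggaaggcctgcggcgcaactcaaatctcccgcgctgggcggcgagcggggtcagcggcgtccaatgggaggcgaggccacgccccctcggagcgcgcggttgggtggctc
The word began 138 bases before the start in Cdc6 and in Pola1, 41 bases before it in Gins3, and 110, 106 and 47 bases before it in Mcm6, where the more distal pair overlap in opposite orientations.

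Levels below are log2 intensities minus the 75th percentile of the array, which sets arrays but not probes on a common scale, so that levels are compared within a gene only. The arrays lay on 3 slides, each scanned in a session of its own: slide 1 held the Cre arrays with nephritis, IKK2 knockout replicates 1 and 2 and the IKK2 knockout arrays with nephritis, slide 2 the untreated Cre arrays and IKK2 knockout replicate 3, and slide 3 all 4 NEMO arrays. Hence NEMO knockout and slide cannot be told apart, and nephritis in Cre mice runs across slides 2 and 1. Between 48.9% and 59.8% of spots were well above background on each array, no spot was saturated, and arrays of a group correlated at 0.971 to 0.993 across genes. The number of arrays, 2 or 3 a group, limits the precision. On its probe the targeted Ikbkb was at 3.29, 3.31 and 3.30 in untreated Cre and at 3.31, 2.88 and 2.99 in untreated IKK2 knockout arrays. It did not pass there (-0.24, adjusted p = 0.162) or with nephritis (-0.34, adjusted p = 0.133). It fell in NEMO knockout (-0.35, adjusted p = 0.0371, and -0.48, adjusted p = 0.00653), where it is not the target. Ikbkg was at -0.85, -0.74 and -0.52 in untreated Cre and at -0.94 and -0.74 in untreated NEMO knockout arrays (-0.13, adjusted p = 0.337). It fell in NEMO knockout with nephritis (-0.34, adjusted p = 0.0195) and rose in untreated IKK2 knockout (0.68, adjusted p = 0.00153). The sources used here do not say whether these probes lie in the deleted exons. Per the labels, PCR was used to check the deletion, and the groups follow the labels.

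The replication genes were higher in NEMO knockout than in Cre T cells, with and without nephritis. Without nephritis, 34 of 44 members rose and 3 fell (adjusted p under 0.05 over all genes, limma), where 21.0% of all genes tested rose and 22.0% fell. The median log2 difference of the members was 0.72, and that of all genes -0.06. The ribonucleotide reductase subunit Rrm2 rose 9.15-fold, thymidine kinase Tk1 8.42-fold, the origin-firing factor Mcm10 7.85-fold and the licensing factor Cdc6 6.75-fold, while the GINS subunit Gins3 and the polymerase subunits Pole2 and Pold2 fell. With nephritis, 34 members rose and 2 fell, where 18.8% of all genes rose and 29.6% fell, and the medians were 0.69 for the members and -0.14 for all genes. A difference of 2-fold or more was seen in 17 members without and 18 with nephritis (38.6% and 40.9%), all higher, against 13.2% and 13.3% of all genes that were higher by as much. The comparisons without and with nephritis share no arrays, though they share slides and the variance estimate of each gene: 32 members rose in both, 94.1% of either list, where of all genes that rose 74.6% of those without and 83.5% of those with nephritis rose in both. Cdt1 and Gins4 rose without nephritis only, and Mcm2 and Tyms with it only; whether the difference itself changed with nephritis was tested as the response below and did not pass for any member.

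**Figure D1:**
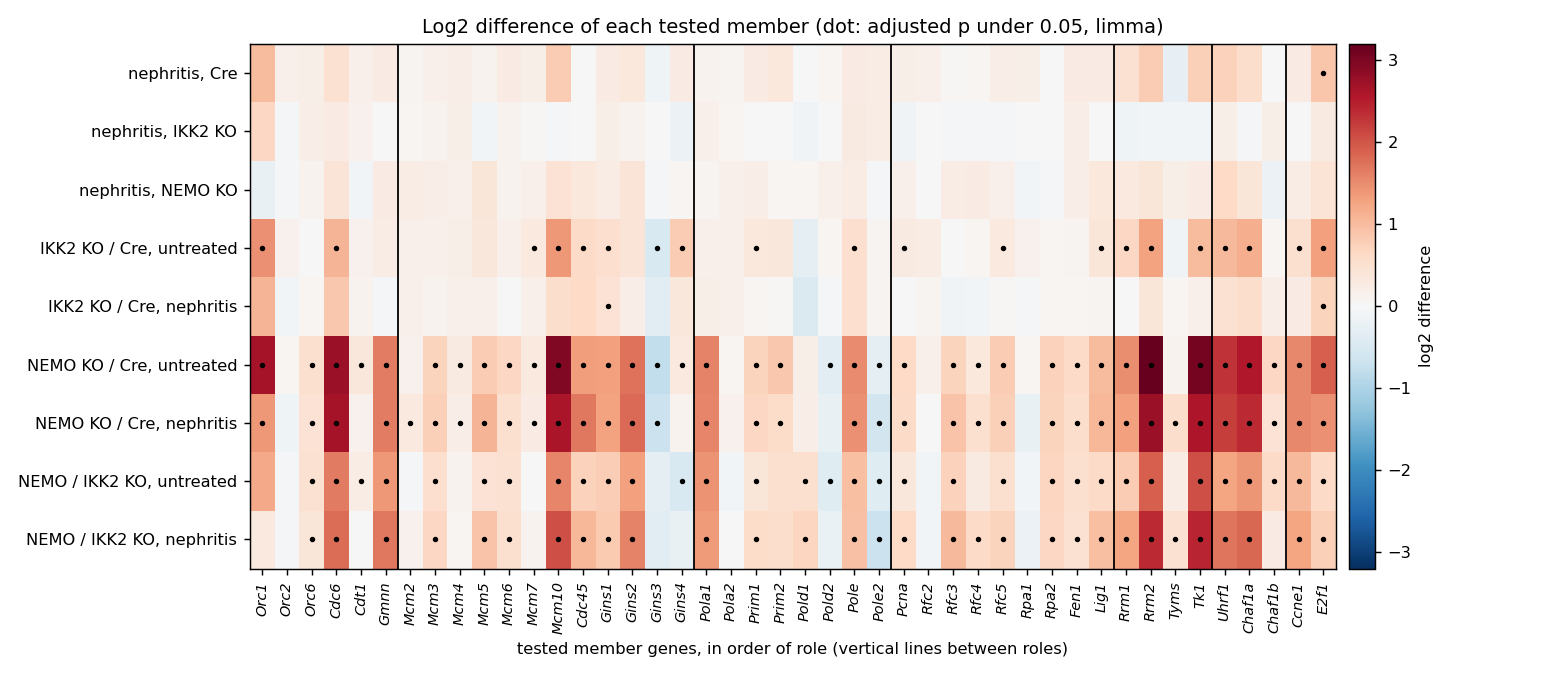
Log2 difference of each of the 44 tested members (columns, ordered by role with vertical lines between roles) in the 9 comparisons between pairs of groups (rows), from -3.2 (blue) to 3.2 (red), with a dot where the adjusted p of limma was under 0.05. The rows of NEMO knockout against Cre hold 37 and 36 dots and those of nephritis 1, 0 and 0.

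In IKK2 knockout T cells without nephritis, members were also higher than in Cre. Of 44 members, 19 rose and 1, Gins3, fell, where 10.0% of all genes rose and 4.51% fell. The median difference was 0.26, against 0.05 over all genes, and 8 members had a fitted difference of 2-fold or more (18.2%, against 6.75% of all genes). They were Mcm10, E2f1, Rrm2, Chaf1a, Cdc6, Uhrf1, Tk1 and Orc1. Orc1 was not above background in Cre and was above it on only 1 of 3 untreated IKK2 knockout arrays, so its difference has no firm size. This comparison runs largely across slides, as 2 of 3 IKK2 knockout arrays lay on slide 1 and the Cre arrays on slide 2. With slide as a fixed block, 13 members were called, all higher, where 5.11% of all genes were called. Only the untreated IKK2 knockout lay on both slides, so the blocked difference is that of its replicate 3 from the Cre arrays. It is the same difference as on slide 2 alone, given next, and only the spread it is set against differs. Against the Cre arrays on its own slide, IKK2 knockout replicate 3 differed by a median of 0.33 over the 44 members, and 3 members were called there (Mcm10, Cdc6 and Uhrf1) with 1 array assumed to vary like the others, where 1.37% of all genes were called. The count fell to 11 without Cre replicate 3, and to 13 without Cre replicate 1, Cre replicate 2 or IKK2 knockout replicate 3. Mcm10 and Uhrf1 passed in all settings tried.

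With nephritis, IKK2 knockout and Cre arrays, which then shared slide 1, were closer. E2f1 and Gins1 rose, and no member fell, where 1.0% of all genes rose and 1.59% fell. The median member difference was 0.11, against -0.03 over all genes. On the arrays of slide 1 alone the differences were the same and neither passed (adjusted p = 0.0584 for E2f1 and 0.0987 for Gins1), and Gins1 lost its call without Cre replicate 1 or 2 with nephritis, without any of the 3 IKK2 knockout replicates with nephritis and without either untreated NEMO array. The count was 1 in each of these cases, and 4 without IKK2 knockout replicate 1 of the untreated group.

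Compared with the IKK2 knockout directly, NEMO knockout arrays were again higher. Without nephritis 29 members rose and 3 fell, where 15.4% of all genes rose and 19.9% fell, with medians of 0.51 and -0.08. With nephritis 29 rose and 1 fell, where 19.0% rose and 27.2% fell, with medians of 0.65 and -0.10. Across the comparisons of NEMO knockout with Cre and with IKK2 knockout, in both conditions, 26 members rose in all 4 (59.1%), against 10.8% of all genes. Only Orc2, Pola2, Rfc2 and Rpa1 of the 44 members passed in none, against 33.8% of all genes. Each NEMO group serves in a pair of these comparisons. The count without nephritis fell to 19 when only the arrays compared were fitted.

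Nephritis gave few calls among these genes. In Cre mice E2f1 rose, and it was the only member to pass, where 2.57% of all genes rose and 1.46% fell. The differences were nevertheless mostly positive: 40 of 44 members were above 0, with a median of 0.22 against 0.10 over all genes. An unadjusted limma p under 0.05 was seen in 20 of 44 members, against 24.7% of all genes. In 24 of 44 members every array with nephritis lay above every array without it, against 20.8% of all genes. With slide as a fixed block no member passed (E2f1 1.0, limma adjusted p = 0.103). That slide term came only from untreated IKK2 knockout replicate 3 against replicates 1 and 2, and so rests on 1 array of slide 2. Without Cre replicate 1 with nephritis, IKK2 knockout replicate 1 or 3, or IKK2 knockout replicate 1 with nephritis, 3 passed. In the IKK2 knockout no member passed, where 0.245% of all genes rose and 0.197% fell, and both medians were 0.01. There 4 of 44 members had an unadjusted p under 0.05, against 14.9% of all genes. In the NEMO knockout, whose arrays shared 1 slide, none passed either, where 0.0681% of all genes rose and 0.361% fell. The medians were 0.19 and -0.02, and 7 of 44 members had an unadjusted p under 0.05, against 6.39% of all genes. No member passed the same limma test for a response to nephritis that differed between either knockout and Cre. Of all genes, 1.14% passed for IKK2 and 0.266% for NEMO. This difference reached 2-fold in 1 member, Orc1 in NEMO knockout (lower), which was not above background in Cre. The median of this difference over the members was -0.15 for IKK2 and -0.04 for NEMO, against -0.09 and -0.13 over all genes.

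**Figure D2:**
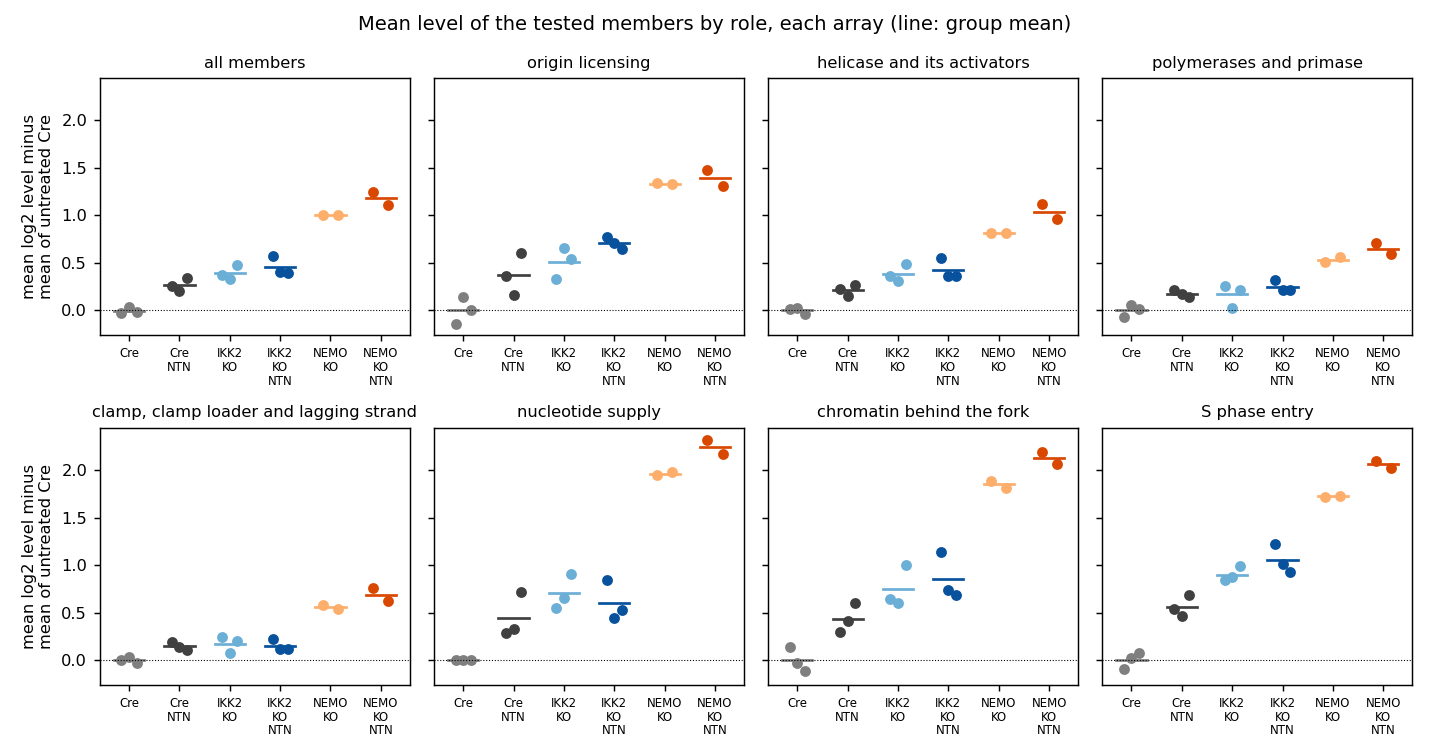
Mean log2 level of the tested members, in all and for each of 7 roles, on each of the 16 arrays, relative to the mean of the 3 untreated Cre arrays (points: arrays; lines: group means; the same axis in all panels). The mean over all members lay between -0.03 and 0.04 in untreated Cre and between 1.0 and 1.25 in the NEMO groups, and the roles differ in height, with nucleotide supply at 1.95 to 2.32 and the clamp group at 0.54 to 0.76 in the NEMO groups.

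Averaged over the tested members, the level relative to untreated Cre was -0.03 to 0.04 in untreated Cre arrays, 0.20 to 0.34 in Cre arrays with nephritis, 0.33 to 0.48 and 0.39 to 0.57 in IKK2 knockout arrays without and with nephritis, and 1.0 and 1.11 to 1.25 in NEMO knockout arrays. The IKK2 groups overlapped each other, the lowest untreated IKK2 knockout array (0.33) was just below the highest Cre array with nephritis (0.34), and no other array reached the NEMO arrays. In such bulk samples a larger share of cells that make these transcripts and more of them in each cell cannot be told apart.

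Among the 6 licensing genes, 5 rose in NEMO knockout without nephritis and 4 with it, and 2 rose in the untreated IKK2 knockout. Of all genes, 21.0%, 18.8% and 10.0% rose in these comparisons. Cdc6, the ATPase that helps load the MCM ring, was at -3.70, -3.79 and -3.55 in untreated Cre, at -3.10, -2.63 and -2.05 in untreated IKK2 knockout and at -0.96 and -0.89 in untreated NEMO knockout arrays. These 3 groups did not overlap, and the differences from Cre were 1.09 (SE 0.28, adjusted p = 0.0262) and 2.76 (SE 0.32, adjusted p = 3.58e-05). With nephritis Cdc6 was at -3.38, -3.61 and -2.57 in Cre, at -1.96, -2.48 and -2.52 in IKK2 knockout and at -0.48 and -0.57 in NEMO knockout arrays, and the IKK2 difference of 0.87 did not pass (adjusted p = 0.142). Another Cdc6 probe, above background on 12 of 16 arrays, was also higher in NEMO knockout in both conditions.

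Geminin and Cdt1 are partners with opposite tasks, and their probes differed in size of change. Gmnn was at -0.77, -0.58 and -0.48 in untreated Cre, -0.61, -0.39 and -0.12 in untreated IKK2 knockout and 1.05 and 0.99 in untreated NEMO knockout arrays. The IKK2 and Cre arrays overlapped, and NEMO knockout was higher than Cre by 1.63 (SE 0.16, adjusted p = 1.1e-05) and than IKK2 knockout by 1.40 (SE 0.16, adjusted p = 5.32e-05). With nephritis Gmnn rose by 1.64 against Cre and 1.68 against IKK2 knockout. Cdt1, which brings the MCM ring to origins and is the target of geminin, lay between 4.15 and 4.24 in untreated Cre and at 4.62 and 4.53 in untreated NEMO knockout arrays, a difference of 0.37 (SE 0.07, adjusted p = 0.00186), and with nephritis its difference of 0.14 did not pass (adjusted p = 0.143).

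Orc1, the ATPase subunit of the origin recognition complex whose level cycles in many cells, was not well above background on any Cre array, on 1 of 3 untreated IKK2 knockout arrays and 2 of 3 with nephritis, and was above it on all 4 NEMO arrays. Being above background on knockout arrays only, Orc1 had to differ from Cre to be tested. It is counted among the members that rose and enters the licensing mean at its measured signal. The fitted difference from Cre passed in untreated IKK2 knockout (limma adjusted p = 0.0471), but with 1 of 3 arrays above background no bound is given there. In NEMO knockout it passed without nephritis (adjusted p = 0.00112) and with it (adjusted p = 0.0345). The bounds on the increase there were at least 4.34-fold and at least 2.45-fold. Each bound sets the mean of the brighter group against the higher of the probe's own signal and the lowest signal well above background on each dim array. With a different background correction the fitted difference of NEMO knockout with nephritis turned to -0.14 (adjusted p = 0.494). Orc6 rose by 0.51 and 0.45 in NEMO knockout, and Orc2 did not pass in any comparison, with differences between -0.15 and 0.15 across the 9 comparisons of groups.

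The 12 helicase genes divided by part. The ring itself differed modestly: Mcm3, Mcm5 and Mcm6 rose in NEMO knockout without nephritis by 0.71, 0.81 and 0.65, Mcm4 and Mcm7 by 0.29 and 0.31, and Mcm2 did not pass (0.14, adjusted p = 0.237). Mcm5 was at 2.56, 2.46 and 2.34 in untreated Cre, 2.83, 2.69 and 2.93 in untreated IKK2 knockout and 3.33 and 3.19 in untreated NEMO knockout arrays. These groups did not overlap, and the IKK2 difference of 0.36 did not pass (adjusted p = 0.0532). With nephritis Mcm5 was at 3.75 and 3.55 in NEMO knockout, above all Cre arrays (2.55 to 2.59) and all IKK2 knockout arrays (2.53 to 2.98). Mcm2 lay between 1.90 and 2.0 in untreated Cre and between 2.05 and 2.40 in NEMO knockout arrays, and passed with nephritis (0.30, adjusted p = 0.0171). Of the ring genes only Mcm7 rose in the untreated IKK2 knockout (0.30, adjusted p = 0.00987).

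The factors that turn the ring into a moving helicase differed more. Mcm10, which is needed to start unwinding, was at -1.86, -2.00 and -2.02 in untreated Cre, -0.89, -0.69 and -0.10 in untreated IKK2 knockout and 1.06 and 0.97 in untreated NEMO knockout arrays. With nephritis it was at -1.25, -1.39 and -0.82, at -0.22, -0.80 and -0.80, and at 1.59 and 1.34. The IKK2 knockout groups overlapped each other, the highest Cre array with nephritis lay above the lowest untreated IKK2 knockout array, and the NEMO arrays were above all others. The differences from Cre were 1.40 (SE 0.22, adjusted p = 0.0024) in IKK2 and 2.97 (SE 0.24, adjusted p = 3.12e-06) in NEMO knockout without nephritis. Cdc45, a subunit of the active helicase, was higher by 0.61 (adjusted p = 0.0291) in IKK2 and 1.34 (adjusted p = 0.000126) in NEMO knockout without nephritis, from -3.34 to -2.98 in untreated Cre, -2.81 to -2.35 in IKK2 and -1.88 to -1.84 in NEMO knockout arrays.

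The 4 subunits of GINS, which act as 1 complex, went different ways. Gins1 was at -0.88, -0.87 and -0.74 in untreated Cre, at -0.44, -0.33 and -0.14 in untreated IKK2 knockout and at 0.50 and 0.47 in untreated NEMO knockout arrays, and it rose in both (0.53, adjusted p = 0.00539, and 1.32, adjusted p = 3.2e-06). With nephritis it lay between -0.66 and -0.45 in Cre, between -0.16 and -0.07 in IKK2 knockout (0.45, SE 0.10, adjusted p = 0.0349) and at 0.84 and 0.58 in NEMO knockout arrays. Gins2 rose by 1.73 and 1.80 in NEMO knockout without and with nephritis and did not pass in IKK2 knockout (0.42, adjusted p = 0.0939). Gins3 went the other way: it was at 6.08, 6.67 and 6.55 in untreated Cre, 5.98, 5.82 and 6.02 in untreated IKK2 and 5.67 and 5.63 in untreated NEMO knockout arrays, and fell by 0.49 (SE 0.14, adjusted p = 0.0322) and by 0.78 (SE 0.15, adjusted p = 0.0015). The IKK2 fall in Gins3 did not pass with slide as a block (-0.41, adjusted p = 0.274).

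Gins4 rose in both knockouts without nephritis and was higher in the IKK2 knockout. Pole2 and Pold2, described below, were also lower in untreated NEMO than in untreated IKK2 knockout. Gins4 was at 1.44, 1.77 and 1.64 in untreated Cre, at 2.67, 2.39 and 2.26 in untreated IKK2 knockout and at 1.95 and 1.92 in untreated NEMO knockout arrays. IKK2 knockout arrays were the highest, and Gins4 rose by 0.82 there (SE 0.11, adjusted p = 0.000939), rose by 0.32 in NEMO knockout (adjusted p = 0.0449) and was lower in NEMO than in IKK2 knockout (-0.50, SE 0.12, adjusted p = 0.00598). With nephritis the Cre arrays lay between 1.86 and 1.91 and the IKK2 knockout arrays between 2.17 and 2.31, a difference of 0.36 that did not pass (adjusted p = 0.101). Gins4 lies on chromosome 8 with 6 protein-coding genes between it and the floxed Ikbkb in RefSeq order, the nearest of the 6 members on that chromosome; the next, Mcm5, has 354 between. On the X chromosome Pola1 lies 70 protein-coding genes from the floxed Ikbkg. Whether the position plays a part was not tested.

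**Figure D3:**
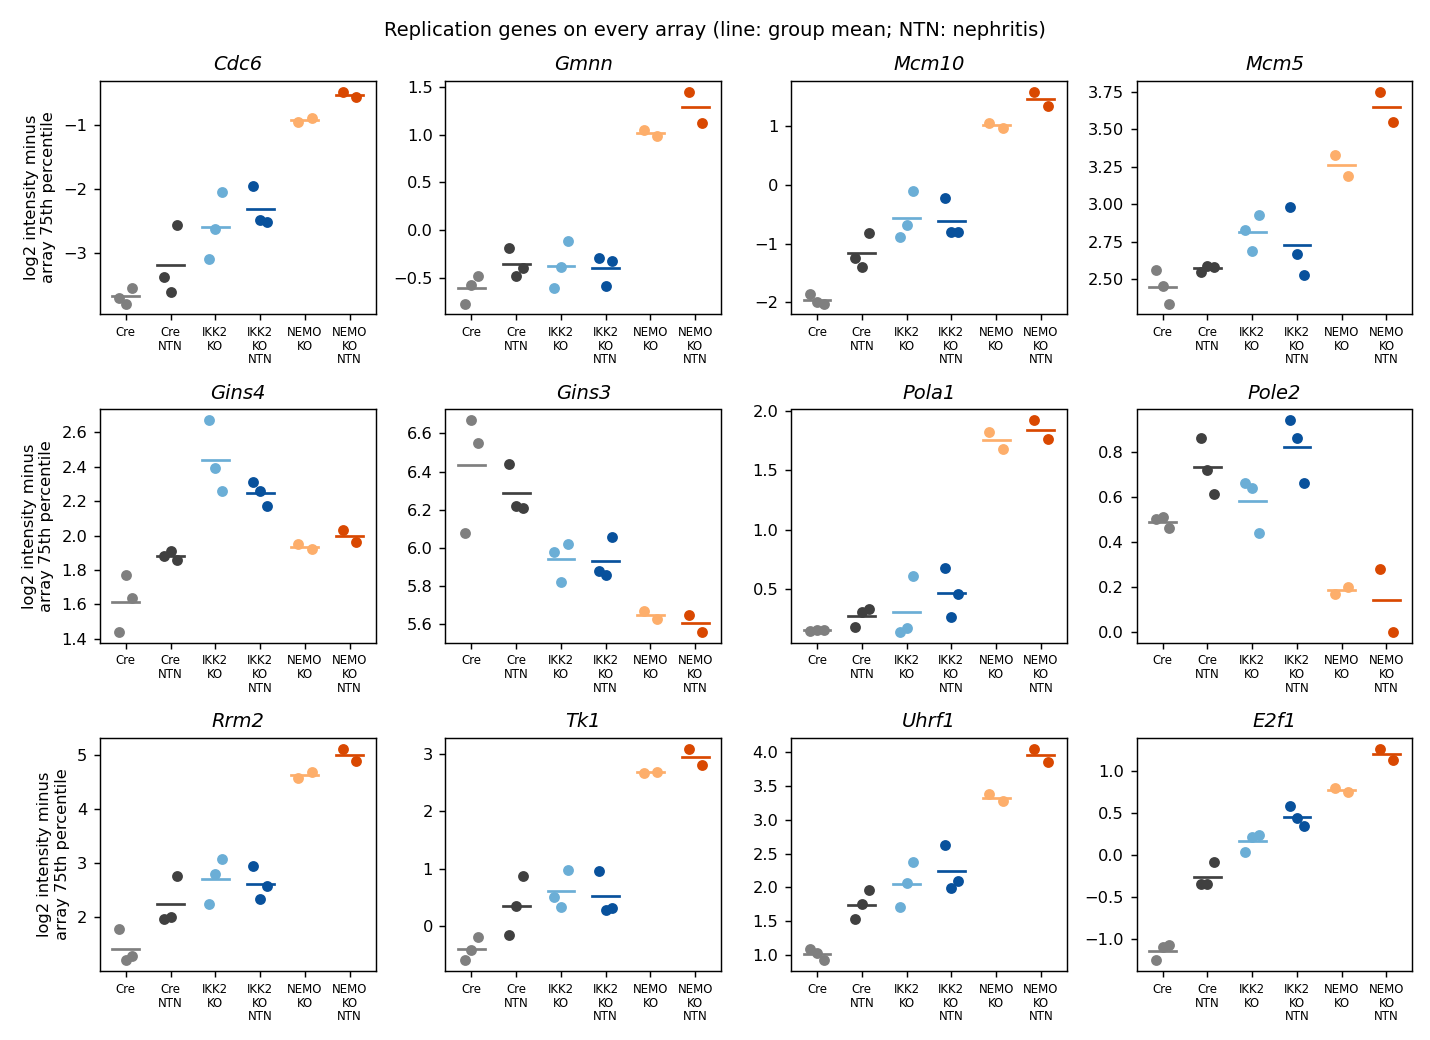
Log2 level (intensity minus the 75th percentile of the array) of 12 members on each of the 16 arrays (points: arrays; lines: group means; axes differ between panels; NTN: nephritis). In Cdc6, Gmnn, Mcm10, Pola1, Rrm2, Tk1 and Uhrf1 the NEMO arrays are the highest, in Gins3 and Pole2 the lowest, and Gins4 is highest in the IKK2 knockout groups.

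Of the 8 polymerase and primase genes, 4 rose and 2 fell in untreated NEMO knockout. Of all genes 21.0% rose and 22.0% fell there, so that the share that fell was near that of all genes. Pola1, the catalytic subunit of the polymerase that primes synthesis, was at 0.15, 0.16 and 0.16 in untreated Cre, 0.14, 0.17 and 0.61 in untreated IKK2 knockout and 1.82 and 1.68 in untreated NEMO knockout arrays. The IKK2 arrays overlapped the Cre arrays (0.15, adjusted p = 0.474), and the NEMO difference was 1.59 (SE 0.14, adjusted p = 6.66e-06), with 1.56 under nephritis. Pole, the catalytic subunit of the leading strand polymerase, was at 0.39, 0.60 and 0.77 in untreated Cre, at 1.09, 0.86 and 1.42 in IKK2 knockout and at 2.08 and 2.09 in NEMO knockout arrays, a rise of 0.53 (adjusted p = 0.0313) and of 1.5 (adjusted p = 2.35e-05). The primase subunits Prim1 and Prim2 rose in NEMO knockout without nephritis (0.71 and 0.86) and with it (0.66 and 0.59), and Prim1 also in the untreated IKK2 knockout (0.33).

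Further polymerase subunits fell or did not pass against Cre. Pole2, the second subunit of the leading strand polymerase, was at 0.50, 0.51 and 0.46 in untreated Cre, 0.66, 0.64 and 0.44 in untreated IKK2 knockout and 0.17 and 0.20 in untreated NEMO knockout arrays. The NEMO arrays were the lowest, by -0.31 against Cre (adjusted p = 0.0461) and by -0.59 with nephritis (SE 0.11, adjusted p = 0.0013), and Pole2 was the member that fell against IKK2 knockout in both conditions (-0.40 and -0.68). Pold2, a small subunit of the lagging strand polymerase, was at 1.19, 1.20 and 1.0 in untreated Cre and at 0.82 and 0.79 in untreated NEMO knockout arrays (-0.33, adjusted p = 0.0387), and did not pass with nephritis (-0.23, adjusted p = 0.115). Pola2 did not pass in any of the 9 comparisons of groups (-0.10 to 0.16). Pold1, the catalytic subunit of the lagging strand polymerase, lay between 2.98 and 3.26 in untreated Cre, between 2.52 and 2.93 in untreated IKK2 knockout and at 3.29 and 3.30 in untreated NEMO knockout arrays, and passed only between NEMO and IKK2 knockout (0.50 without and 0.68 with nephritis).

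Of the 9 genes of the clamp, its loader and the lagging strand, 7 rose in NEMO knockout in each condition. They rose by 0.33 to 1.0 without and 0.52 to 1.07 with nephritis, where 21.0% and 18.8% of all genes rose. The largest was Lig1, the ligase that joins Okazaki fragments: it was at 2.72, 2.69 and 2.58 in untreated Cre, 3.07, 2.98 and 3.11 in untreated IKK2 knockout and 3.70 and 3.64 in untreated NEMO knockout arrays. The 3 groups did not overlap, and Lig1 rose by 0.38 (adjusted p = 0.0176) and by 1.0 (SE 0.10, adjusted p = 1.54e-05). Pcna, the sliding clamp, was at 4.91, 4.91 and 4.98, at 5.17, 5.11 and 5.36 and at 5.53 and 5.61 in the same groups, and rose by 0.28 (adjusted p = 0.0452) and 0.64 (adjusted p = 0.000219). Fen1, which trims the flaps of Okazaki fragments, rose in NEMO knockout, by 0.60 and 0.56, from 3.31 to 3.43 in untreated Cre to 3.89 and 4.04 in untreated NEMO knockout arrays. Of the clamp loader, Rfc3 and Rfc5 rose in all NEMO comparisons, Rfc4 (1.97 to 2.34 in untreated Cre, 2.41 and 2.53 in untreated NEMO knockout) in 3 of 4 and Rfc2 in none. Of the single-strand binding subunits, Rpa2 rose by 0.74 and 0.71 in NEMO knockout, whereas Rpa1 lay between 5.87 and 6.30 in untreated Cre and at 6.17 and 6.08 in untreated NEMO knockout arrays and did not pass (0.05 and -0.23).

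Nucleotide supply held the members with the largest differences between untreated NEMO knockout and Cre, Rrm2 and Tk1. Rrm2, the small subunit of ribonucleotide reductase that makes the enzyme active in S phase, was at 1.78, 1.20 and 1.28 in untreated Cre, 2.24, 2.79 and 3.07 in untreated IKK2 knockout and 4.56 and 4.67 in untreated NEMO knockout arrays. With nephritis it was at 1.96, 2.0 and 2.76, at 2.95, 2.33 and 2.57 and at 5.11 and 4.88. NEMO arrays stood above all others, and the difference from Cre was 3.19 (SE 0.29, adjusted p = 7.32e-06) without and 2.75 (SE 0.29, adjusted p = 1.99e-05) with nephritis; the IKK2 difference was 1.28 (SE 0.26, adjusted p = 0.009) without nephritis and did not pass with it (0.38, adjusted p = 0.467). Rrm1, the large subunit, rose less, by 1.48 and 1.30 in NEMO knockout, from 0.82, 1.52 and 1.37 in untreated Cre to 2.74 and 2.68, and by 0.66 (adjusted p = 0.0298) in the untreated IKK2 knockout.

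Tk1, the thymidine kinase of the salvage pathway, was at -0.60, -0.41 and -0.19 in untreated Cre, 0.51, 0.33 and 0.97 in untreated IKK2 knockout and 2.67 and 2.68 in untreated NEMO knockout arrays, a rise of 1.0 (adjusted p = 0.0255) and of 3.07 (SE 0.29, adjusted p = 8.95e-06). With nephritis the Cre arrays (-0.16, 0.35 and 0.87) overlapped the IKK2 arrays (0.95, 0.28 and 0.32), and the NEMO arrays were at 3.09 and 2.80. Tyms, thymidylate synthase of the synthetic pathway, behaved otherwise: it was at -1.55, -1.86 and -1.99 in untreated Cre and at -1.72 and -1.66 in untreated NEMO knockout arrays (0.11, adjusted p = 0.621), and passed with nephritis (0.55, SE 0.16, adjusted p = 0.0151), when the Cre arrays lay between -2.30 and -1.77.

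All 3 genes of chromatin behind the fork rose in NEMO knockout without and with nephritis, where 21.0% and 18.8% of all genes rose. Uhrf1, which directs DNA methylation to newly copied strands, was at 1.09, 1.03 and 0.92 in untreated Cre, 1.71, 2.07 and 2.38 in untreated IKK2 knockout and 3.38 and 3.27 in untreated NEMO knockout arrays, without overlap. It rose by 1.04 (SE 0.19, adjusted p = 0.00528) and by 2.31 (SE 0.21, adjusted p = 7.3e-06), and another probe, above background on 11 of 16 arrays, was also higher in both. Chaf1a, the large subunit of the chromatin assembly factor, rose by 1.16 (SE 0.22, adjusted p = 0.00628) and by 2.57 (SE 0.25, adjusted p = 9.56e-06), from -2.03 to -1.65 in untreated Cre to -0.97 to -0.37 in IKK2 and 0.64 to 0.74 in NEMO knockout arrays. Chaf1b, its partner, rose by 0.66 in untreated NEMO knockout and not in the IKK2 knockout (0.05, adjusted p = 0.809).

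Both measured genes of S phase entry rose in untreated IKK2 knockout, as did 10.0% of all genes, and in the NEMO comparisons, as did 15.4% to 21.0%. E2f1 passed in more comparisons than any other member. E2f1, the activating transcription factor, was at -1.26, -1.10 and -1.07 in untreated Cre and at -0.35, -0.35 and -0.09 in Cre arrays with nephritis. It was at 0.04, 0.21 and 0.24 and then 0.58, 0.44 and 0.34 in IKK2 knockout, and at 0.80 and 0.75 and then 1.27 and 1.13 in NEMO knockout arrays. None of the 6 groups overlapped another. E2f1 rose with nephritis in Cre (0.88, SE 0.10, adjusted p = 0.0036), in IKK2 knockout against Cre without nephritis (1.30, SE 0.10, adjusted p = 7.03e-05) and with it (0.72, SE 0.10, adjusted p = 0.00369), and in NEMO knockout against Cre (1.91, SE 0.11, adjusted p = 6.06e-07, and 1.47, SE 0.11, adjusted p = 1.76e-06); the steps with nephritis in IKK2 (0.29, adjusted p = 0.187) and NEMO knockout (0.43, adjusted p = 0.307) did not pass. Unlike Rrm2 or Tk1, its step from IKK2 to NEMO knockout (0.61, adjusted p = 0.00115) was smaller than that from Cre to IKK2 knockout, a contrast of sizes that was not tested.

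Ccne1, cyclin E1, was at 1.45, 1.53 and 1.59 in untreated Cre, 2.02, 1.92 and 2.12 in untreated IKK2 knockout and 3.03 and 3.09 in untreated NEMO knockout arrays. These groups did not overlap, and Ccne1 rose by 0.50 (SE 0.09, adjusted p = 0.00639) and by 1.54 (SE 0.11, adjusted p = 1.11e-06), and by 1.53 in NEMO knockout with nephritis. Its second probe differed by 1.12 and 1.01 in NEMO knockout. Across the 6 tested members that have a second probe, its sign was the same in 24 and opposite in 2 of the calls made with the main probe, where the further probes of Cdc6, Uhrf1 and Pole were not above background on some arrays.

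Other genes of the pathway went both ways. Of 42 further replication, fork and nucleotide genes, 15 rose and 9 fell in untreated NEMO knockout, with a median of 0.13, where 21.0% of all genes rose and 22.0% fell, so that the share that fell was near that of all genes. In untreated IKK2 knockout 6 rose and 1 fell, where 10.0% and 4.51% of all genes did. The checkpoint mediator Clspn was at least 10.4-fold higher in untreated NEMO knockout. It was above background on knockout arrays only and so had to differ from Cre to be tested. Top2a, which untangles copied strands, rose by 3.18, the origin firing factor Ticrr by 2.85, the nuclease Dna2 by 2.90 and Dut, which keeps uracil out of DNA, by 1.07. The folate and nucleotide enzymes Mthfd1, Shmt1, Impdh2 and Ctps fell (-0.56, -0.63, -0.64 and -0.43), as did the replication complex subunits Orc4, Orc5, Pold4 and Rfc1 (-0.38, -0.45, -0.61 and -0.31). Rrm2b, the reductase subunit used outside S phase, fell in untreated IKK2 knockout (-0.79) and did not pass in untreated NEMO knockout (0.16).

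Among 26 tested genes that control the step from G1 to S, 14 rose and 2 fell in untreated NEMO knockout, where 21.0% of all genes rose and 22.0% fell. In untreated IKK2 knockout 9 rose, where 10.0% of all genes rose. Ccna2, E2f7 and E2f8, which are themselves induced at the start of S phase, rose by 3.63, 3.75 and 3.43 in untreated NEMO and by 1.5, 1.69 and 1.46 in untreated IKK2 knockout. The kinase inhibitors Cdkn1a and Cdkn2c also rose in untreated NEMO knockout (2.51 and 1.56), and Myc fell (-1.18). All but 1 of 17 mitosis genes rose in the 4 comparisons of NEMO knockout with Cre and IKK2 knockout, and 14 rose in untreated IKK2 knockout. Of all genes, 15.4% to 21.0% rose in each of those 4 comparisons and 10.0% in untreated IKK2 knockout. The mean of the mitosis genes relative to untreated Cre was 2.95 to 3.37 on NEMO arrays. In this mean Aurkb and Ttk enter at their measured signal although neither was above background on any Cre array, and Aurkb was above it on NEMO arrays only and so had to differ to be tested.

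**Figure D4:**
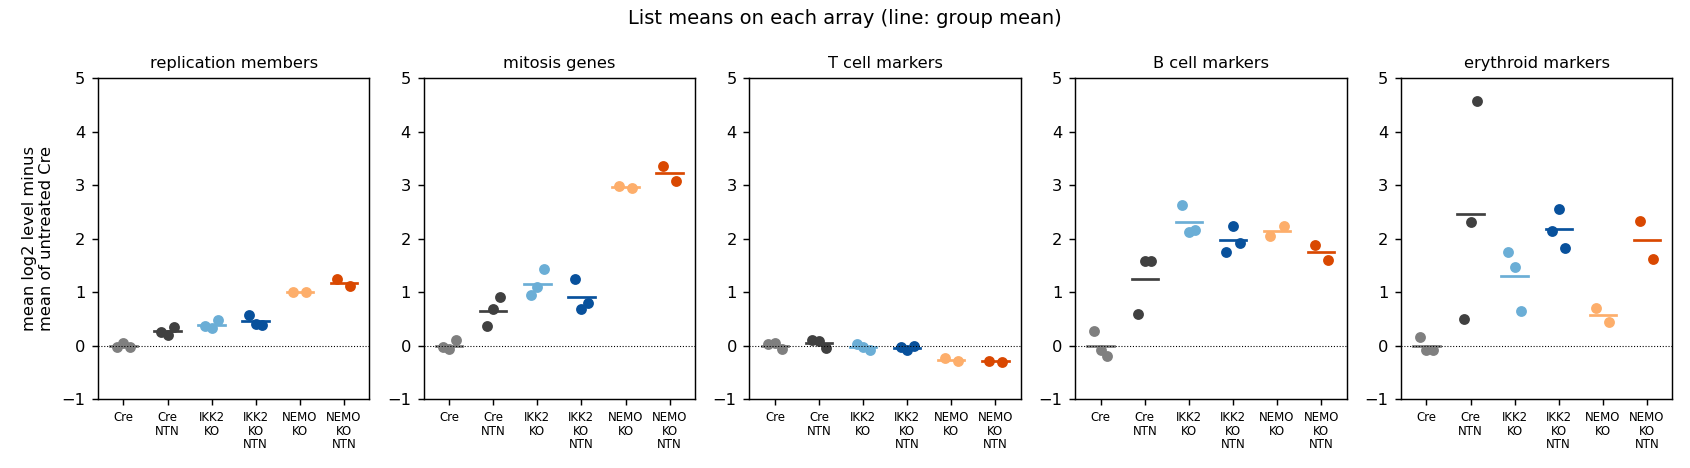
Mean log2 level of the tested replication members, 17 mitosis genes and the markers of T cells (9 genes), B cells (10) and erythroid cells (9) on each array, relative to the mean of the 3 untreated Cre arrays (points: arrays; lines: group means; the same axis in all panels). Replication and mitosis means are highest on the 4 NEMO arrays, B cell means lie near 2 in all knockout groups, and erythroid means run from -0.09 to 4.57.

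Markers of other cells moved with some of these differences. T cell markers, Cd3d, Cd3e and Cd4 among them, were well above background on all arrays, with a list mean of -0.09 to 0.03 in IKK2 and -0.30 to -0.23 in NEMO knockout arrays relative to untreated Cre. Of these, 4 of 9 fell in untreated NEMO knockout, where 22.0% of all genes fell. The mean of 10 B cell markers lay between -0.20 and 0.28 in untreated Cre, 0.59 and 1.59 in Cre with nephritis, 1.75 and 2.63 in IKK2 and 1.61 and 2.23 in NEMO knockout arrays. Of the list, 9 of 10 rose in untreated IKK2 knockout and 7 in untreated NEMO knockout, where 10.0% and 21.0% of all genes rose. On untreated Cre arrays 3 of the list were not above background. Between NEMO and IKK2 knockout no B cell marker rose, where 15.4% of all genes rose without and 19.0% with nephritis. With nephritis 2 of 10 fell, which is near the 27.2% of all genes that fell. The mean of 11 myeloid markers ran from -0.35 to 0.66 in untreated Cre and 0.47 to 2.45 in Cre with nephritis. It ran from 2.11 to 3.02 in IKK2 and 2.14 to 3.92 in NEMO knockout arrays. Itgam had lower means in both untreated knockouts than in untreated Cre, and the rest had higher ones. Of the 11, 4 rose between NEMO and IKK2 knockout with nephritis, where 19.0% of all genes rose. The mean of 6 plasma cell markers was -0.18 to 0.20 in untreated Cre and 0.19 to 2.10 in Cre with nephritis. It was 0.01 to 1.12 in IKK2 and 1.69 to 2.60 in NEMO knockout arrays, so that Cre with nephritis reached into the NEMO range. Between the knockouts 3 rose without and 5 with nephritis, where 15.4% and 19.0% of all genes rose. The mean of 5 tested dendritic cell markers ran from -0.77 to 0.54 in untreated Cre and -0.32 to 1.86 in Cre with nephritis. It ran from 1.42 to 2.24 in IKK2 and 2.31 to 2.95 in NEMO knockout arrays. In this mean NEMO arrays were above all IKK2 arrays, as for the replication members. Siglech went the other way, at group means of 8.05, 7.68 and 7.71 in untreated Cre, IKK2 and NEMO knockout. The other tested markers had higher means in both untreated knockouts. In each condition 1 of 5 rose between the knockouts, near the 15.4% and 19.0% of all genes that rose. The mean of 8 CD8 and NK cell markers was -0.06 to 0.06 in untreated Cre and -0.06 to 0.70 in Cre with nephritis. It was 0.21 to 0.85 in IKK2 and 0.63 to 1.20 in NEMO knockout arrays. Its genes went both ways. Against untreated Cre, the group means of Cd8b1, Klrb1c and Prf1 were lower in untreated NEMO knockout. Those of Cd8a, Ncr1, Klrd1, Eomes and Gzma were higher. In untreated IKK2 knockout Klrb1c, Klrd1 and Prf1 were lower and the rest higher. The mean of 9 erythroid markers was -0.09 to 0.17 in untreated Cre, 0.49 to 4.57 in Cre with nephritis, 0.65 to 2.55 in IKK2 knockout, 0.44 to 0.71 in untreated NEMO knockout and 1.62 to 2.34 in NEMO knockout arrays with nephritis. The part of these other cells in the replication differences was not tested.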

How the data were processed

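Array scans of 16 samples in 6 groups were used. The authors deposited the scanner output, whose processed intensity per spot was, per the file headers, corrected for background and spatial trend in Agilent Feature Extraction 10.7.3.1 (10.5 per the submitters' processing notes). A log2 matrix deposited by the authors, with a background treatment not given in the sources used here, served as an alternative only (column medians 5.65 to 5.68, correlation of 0.966 to 0.984 with the log2 processed intensity).

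Control and outlier spots (103 to 246 an array) were left out, spots of a probe averaged, log2 taken and each array's 75th percentile subtracted. Names came from probe accessions matched to RefSeq (GRCm38.p6): 27248 of 55681 probes had a symbol, 28433 none, and 20667 genes a probe. A gene's tested probe was the brightest, on average, of those well above background on at least 2 arrays. The file headers name build mm9, so RefSeq coordinates are given for promoters only. Group means were fitted over all 16 arrays with limma 3.58.1 in R 4.3.3 (lmFit, eBayes; 11.8 degrees of freedom with the prior), and 11 contrasts were tested two-sided, with Benjamini-Hochberg adjustment over 14688 genes and a threshold of 0.05. All adjusted p values come from this limma model or its alternatives. Comparisons against the same group share its arrays. Alternatives changed the background correction (normexp with offset 50, on the median signal because the files hold no mean signal), the normalization, the filter on dim probes, the probe, the arrays fitted, and slide or replicate number as a block. The fit was tested on simulated data. Tables and plots were made in Python 3.11.15 (pandas 2.3.3, matplotlib 3.10.9).

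The members, the lists and the rule for named genes (fixed members of each role, the 3 largest called and non-overlapping differences of each comparison, and members against the main direction) were chosen with earlier results of these data known. Genes named from the other lists were chosen after their values were seen. Replicate numbers do not pair samples: residuals of same-numbered arrays of different groups correlated at -0.198 to 0.126, and 3 of 36 were above 0.1.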

Additional observations from a re-analysis of the deposited data

How the results depend on the processing

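Over 30 alternatives, of which 16 left out 1 array each, 158 calls of a member in a comparison gave 4308 values: 3997 kept direction and call, 310 kept the direction and lost the call, and 1 reversed (Orc1 in NEMO knockout against Cre with nephritis, -0.14 under normexp, where the Cre groups are not above background). Of 326 uncalled pairs, 59 values passed. Untreated IKK2 knockout against Cre (20 members called) gave 13 with normexp, 13 with no filter on dim probes, 13 with slide as a fixed block, 3 on slide 2 alone, 8 with only the arrays compared, 12 without both Cre replicate 1 and Cre replicate 2 with nephritis, and 11 to 18 when 1 array was left out. The same with nephritis (2 called) gave 1 with normexp, 1 with no filter, 0 on slide 1 alone, 0 with only the arrays compared, 1 without both named arrays, and 1 to 4 when 1 array was left out. Nephritis in Cre (1 called) gave 2 with probes above background on at least 8 arrays, 2 with the mean of all probes of a gene, 0 with slide as a fixed block, 0 with only the arrays compared, and 1 to 3 when 1 array was left out. Untreated NEMO against IKK2 knockout (32 called) gave 19 with only the arrays compared. NEMO knockout against Cre kept 28 of 37 calls under all alternatives without nephritis and 27 of 36 with it; the IKK2 knockout kept 2 of 20. With the replicate number as a block, the numbers not being a pairing, 36 members were called in untreated NEMO knockout against Cre and 33 with nephritis, and 19 in untreated IKK2 knockout. Quantile normalization moved the median of all genes in NEMO knockout against Cre with nephritis from -0.14 to -0.04. Slide as a fixed block could not be fitted where NEMO arrays were compared with others. Where it was fitted, its slide term came only from the untreated IKK2 knockout, of which replicate 3 alone lay on slide 2. Signal over background limits Orc1 to bounds in NEMO knockout against Cre, gives it no firm size in untreated IKK2 knockout, and leaves Ccne2 without a level.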

Other observations

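With nephritis in Cre mice, 9 genes of the further replication, G1 to S and mitosis lists rose, beside E2f1 among the members. These lists held 42, 26 and 17 tested genes, and 2.57% of all genes rose. E2f8, a repressor of the E2F family, was at -1.85, -2.12 and -2.51 without and at -1.05, -1.35 and -0.44 with nephritis, and rose by 1.21 (SE 0.27, limma adjusted p = 0.0339). Ccna2, the cyclin of S phase, was at -0.83, -1.10 and -1.20 without and at -0.31, -0.10 and 0.72 with nephritis, and rose by 1.15 (SE 0.27, limma adjusted p = 0.0384). The array groups did not overlap in either gene. Dna2, Cdkn2d and the mitosis genes Bub1, Ccnb2, Nusap1, Birc5 and Cenpe rose by 0.90, 0.31, 0.94, 0.88, 1.06, 0.93 and 0.78. With slide as a fixed block, 0 of the 9 passed in limma (8 had an unadjusted p under 0.05), at differences between 0.28 (Cdkn2d) and 1.76 (Ccna2). The slide term in these differences came only from untreated IKK2 knockout replicate 3 against replicates 1 and 2, and so rests on 1 array of slide 2. In the same comparison 4 of 10 B cell markers rose, 2 of 11 myeloid and 2 of 9 tested erythroid markers, against the same 2.57% of all genes. On Cre replicates 1 to 3 with nephritis, relative to untreated Cre, the mean of 17 mitosis genes was 0.37, 0.68 and 0.91, that of the erythroid markers 0.49, 2.32 and 4.57 and that of the myeloid markers 0.47, 1.98 and 2.45. Their part in the rise was not tested.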
